A study of Mus musculus with 12 samples.

Results

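The Plekhg family consists of guanine nucleotide exchange factors that carry a Dbl homology domain, which catalyses the exchange, followed by a pleckstrin homology domain. Its members were taken by gene symbol from the deposited count table, which lists 45906 genes, and all 6 (Plekhg1 to Plekhg6) were found. No other symbol in the table starts with Plekhg. To examine how Plekhg5 affects mice that express mutant SOD1, the study crossed Plekhg5-deficient mice with SOD1-G93A mice and sequenced polyadenylated RNA of the spinal cord at an age of 7 months. The 12 libraries fall into 4 genotypes of 3 libraries each. Plekhg5+/+ mice carry neither change. Plekhg5-/- mice lack Plekhg5, Plekhg5+/+ SOD1-G93A mice carry the transgene for human SOD1 with the G93A substitution of familial amyotrophic lateral sclerosis, and Plekhg5-/- SOD1-G93A mice carry both. The strain background was C57BL/6, and the transgenic line is described as low copy with slow progression. The sequence change of the Plekhg5-/- allele and the promoter of the transgene are not given in the sources used here. Sex was not a criterion, and 8 of the 12 libraries held transcripts of Y-linked genes. Those that did not were Plekhg5-/- library 2, Plekhg5+/+ SOD1-G93A library 2 and Plekhg5-/- SOD1-G93A libraries 2 and 3. The genotypes were thus not balanced for these transcripts. The libraries of a genotype are described in the study as biological replicates, while the labels only number them.

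Small GTPases cycle between a GDP-bound inactive and a GTP-bound active state, and exchange factors such as the Plekhg proteins promote loading with GTP. The active GTPases bind effectors that remodel actin and myosin. In neurons they shape axons, dendrites and synapses. Plekhg5 is known as a factor for the vesicle GTPase Rab26, through which it takes part in autophagy of synaptic vesicles, and mutations in human PLEKHG5 cause lower motoneuron disease and peripheral neuropathy. Plekhg2 is activated by G protein beta-gamma subunits and acts on Rac and Cdc42. Plekhg1 acts on Cdc42 in endothelial and epithelial cells, and Plekhg3 binds actin filaments and acts on Rac and Cdc42 at the front of migrating cells. Plekhg4, also called puratrophin, is linked to spinocerebellar ataxia. Plekhg6, also called MyoGEF, binds nonmuscle myosin and acts during cell division.

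The family members lie on 6 different chromosomes of GRCm38.p6. Plekhg5 spans chr4:152072433-152115404 on the plus strand, with 4745 bases of combined exons. Plekhg1 (chr10:3740251-3967303, plus strand), Plekhg3 (chr12:76533303-76580489, plus strand) and Plekhg4 (chr8:105369640-105382860, plus strand) have 18551, 7315 and 6663 bases of exons. Plekhg2 (chr7:28359603-28372681) and Plekhg6 (chr6:125362651-125381615) lie on the minus strand, with 5607 and 4130 bases of exons. Only Plekhg4 shares bases with a neighbour on the same strand. The last 242 bases of Slc9a5, a sodium/proton exchanger, overlap the start of its annotated span.

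RefSeq promoter windows, from 250 bases before to 50 bases after a transcript start, were found for 4 of the 6 members. Plekhg3 and Plekhg6 have no entry. The windows of Plekhg5, the gene lost in the mutants, and of Plekhg2 and Plekhg4, whose libraries with and without the transgene did not overlap in Plekhg5+/+ mice, are printed 5′ to 3′ on the strand of the gene. Capitals mark the GC box (GGGCGG), the CCAAT box (CCAAT) and the TATA box (TATAAA) on either strand, and matches that touch or overlap run together.
Plekhg5, upstream start, chr4:152086592-152086891, plus strand: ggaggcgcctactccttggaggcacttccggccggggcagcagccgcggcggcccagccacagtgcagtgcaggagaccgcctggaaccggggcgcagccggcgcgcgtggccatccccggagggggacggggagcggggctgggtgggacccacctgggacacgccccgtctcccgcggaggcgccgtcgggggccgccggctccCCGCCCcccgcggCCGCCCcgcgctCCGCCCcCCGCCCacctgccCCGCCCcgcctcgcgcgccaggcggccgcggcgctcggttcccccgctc
Plekhg5, downstream start, chr4:152096469-152096768, plus strand: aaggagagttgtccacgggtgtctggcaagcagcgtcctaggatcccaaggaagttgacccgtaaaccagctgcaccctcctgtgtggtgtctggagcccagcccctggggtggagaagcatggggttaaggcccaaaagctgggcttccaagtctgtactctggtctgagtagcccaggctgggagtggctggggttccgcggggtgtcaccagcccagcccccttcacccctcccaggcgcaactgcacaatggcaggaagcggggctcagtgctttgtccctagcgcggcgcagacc
Plekhg2, chr7:28372613-28372912, minus strand: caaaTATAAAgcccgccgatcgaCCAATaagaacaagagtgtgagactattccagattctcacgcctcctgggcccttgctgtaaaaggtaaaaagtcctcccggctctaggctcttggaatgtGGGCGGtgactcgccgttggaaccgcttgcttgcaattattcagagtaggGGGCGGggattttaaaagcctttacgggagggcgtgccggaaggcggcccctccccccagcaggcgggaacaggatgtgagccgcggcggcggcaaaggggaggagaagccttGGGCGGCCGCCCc
Plekhg4, chr8:105374977-105375276, plus strand: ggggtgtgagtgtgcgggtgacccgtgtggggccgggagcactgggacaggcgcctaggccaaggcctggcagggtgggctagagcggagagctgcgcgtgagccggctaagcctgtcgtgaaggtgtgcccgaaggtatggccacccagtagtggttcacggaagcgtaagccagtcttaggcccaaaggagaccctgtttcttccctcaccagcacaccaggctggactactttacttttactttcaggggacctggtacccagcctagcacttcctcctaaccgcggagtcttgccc

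The upstream Plekhg5 window has 82.7% G and C, more than 99.6% of all 32851 windows, with 44 CpG dinucleotides and 5 GC boxes. A further Plekhg5 window, at chr4:152086613-152086912, overlaps it. The downstream Plekhg5 window has 63.0% G and C, 10 CpG dinucleotides and none of the motifs. The Plekhg2 window holds 4 GC boxes, 1 CCAAT box and 1 TATA box, and its 59.3% G and C lie closer to the median of 52.7% over all windows. Neither the Plekhg4 window (62.0% G and C, 14 CpG) nor that of Plekhg1 (44.3% G and C, 4 CpG) holds any of these letters. Over all windows, 35.7% hold a GC box, 37.4% a CCAAT box and 13.6% a TATA box. A match describes the letters of the window and not a binding site. The Plekhg5 and Plekhg4 windows lie inside the annotated spans of their genes, and other annotated starts of these genes are not shown.

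The libraries held between 30415643 and 38743628 counts. Levels are given as CPM (counts per 1e+06 counts of the library, with library sizes normalized by TMM). Levels per length, used to compare genes with each other, are given as RPKM (CPM divided by the combined exon length in kilobases). Human SOD1 lay between 4421 and 5638 CPM in the transgenic libraries and between 0.153 and 5.47 CPM in the others. In bulk RNA of whole spinal cord, fewer cells of a type and less RNA per cell cannot be told apart. Of the 6 members, 5 passed the filter on low counts and were tested with edgeR's quasi-likelihood test together with all 20155 genes that passed, and genes with an adjusted p under 0.05 are called changed. Groups of 3 libraries that do not overlap reach p = 0.1 in a two-sided exact permutation test, the smallest possible. The share of all genes without such overlap was not computed.

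Plekhg5 was strongly reduced in both Plekhg5-/- genotypes, and a residual signal of 14.3% to 21.0% of the control mean remained in each of the 6 libraries. In Plekhg5+/+ libraries Plekhg5 was at 19.4, 24.5 and 25.0 CPM, and in Plekhg5-/- libraries at 3.28, 3.98 and 4.70 CPM. With the transgene it was at 21.5, 24.9 and 20.9 CPM in Plekhg5+/+ SOD1-G93A and at 4.72, 3.92 and 4.14 CPM in Plekhg5-/- SOD1-G93A libraries. All 6 libraries without Plekhg5 lay far below all 6 libraries with it, with no overlap. The log2 fold change was -2.53 without the transgene (SE 0.143, 95% interval -2.84 to -2.22, adjusted p = 5.39e-06, edgeR). With the transgene it was -2.40 (SE 0.142, 95% interval -2.70 to -2.09, adjusted p = 9.06e-06, edgeR). Plekhg5 stayed below the threshold in all 21 alternative settings, with adjusted p up to 0.00162 and 0.000256.

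The residual Plekhg5 signal was well above the counting limit. The Plekhg5-/- libraries held 112, 132 and 149 Plekhg5 counts and the Plekhg5-/- SOD1-G93A libraries 153, 129 and 160, against 669 to 815 and 692 to 756 counts in their controls. All of these counts were whole numbers, with no fraction from reads shared with other genes or positions. Relative to the control mean of the same background the residual CPM was 14.3%, 17.3% and 20.5% without and 21.0%, 17.4% and 18.5% with the transgene. These ranges overlap. The fitted residual was 17.4% (95% interval 14.0% to 21.5%) without and 18.98% (15.3% to 23.5%) with the transgene. The difference between the backgrounds on the log2 scale was 0.13 (95% interval -0.30 to 0.56, adjusted p = 0.834, edgeR). Because the table gives 1 sum of exon counts per gene, the position of the residual reads along Plekhg5 was not tested.

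**Figure D1:**
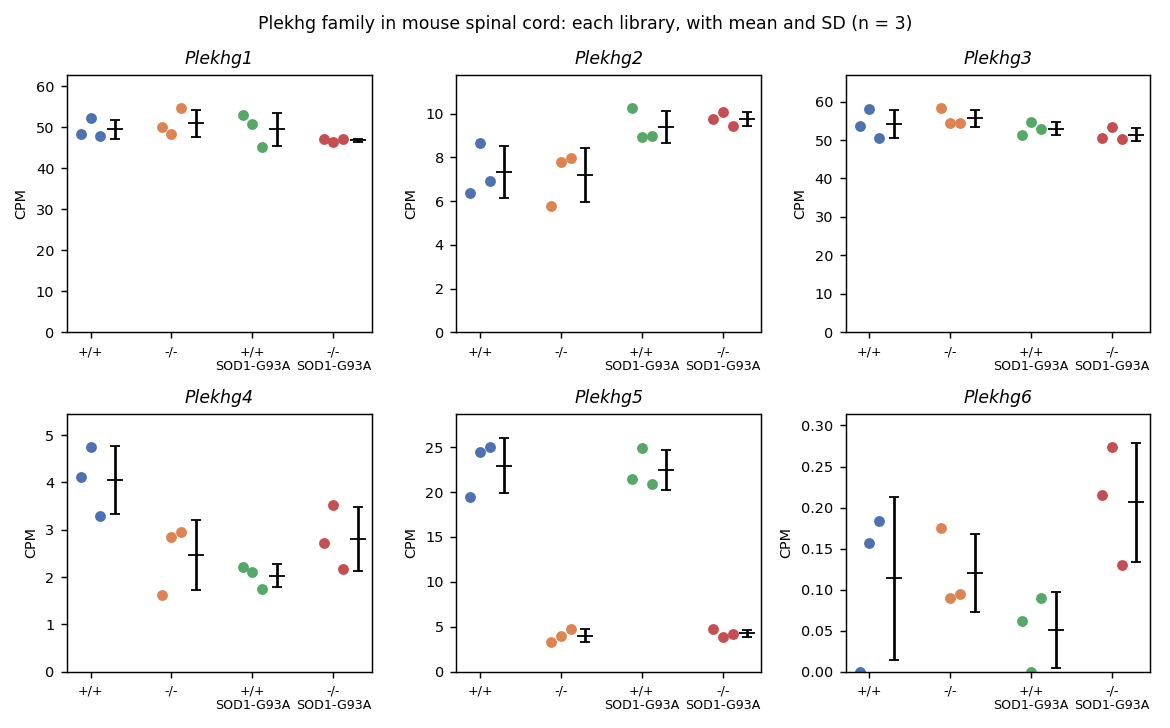
Level of each Plekhg member (CPM, linear axis from 0, separate scale per panel) in the 12 libraries by genotype, with points for libraries and the mean and SD of 3 libraries. Plekhg5 drops to between 3.28 and 4.72 CPM in both Plekhg5-/- genotypes, while Plekhg1 stays between 45.1 and 54.6 CPM in all 12 libraries.

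Plekhg5 was the only member called in the comparisons of Plekhg5 loss. It is the gene lost by design, so its call was set in advance and does not describe the rest of the family. Of the 5 members tested, 1 was called without the transgene, where 0.0298% of all genes tested were called. With the transgene it was again 1 of 5, against 0.0347% of all genes. Averaged over both backgrounds, with 6 libraries against 6, it was 1 of 5, against 0.0546% of all genes, and the mean log2 fold change of Plekhg5 was -2.46 (SE 0.101, adjusted p = 9.76e-08, edgeR).

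None of the 4 tested paralogs passed the threshold with Plekhg5 loss. Plekhg3 was at 53.8, 58.0 and 50.6 CPM in Plekhg5+/+ and at 58.3, 54.4 and 54.4 CPM in Plekhg5-/- libraries. With the transgene Plekhg3 was at 51.3, 54.7 and 53.0 CPM with Plekhg5 and at 50.6, 53.3 and 50.2 CPM without it. The libraries with and without Plekhg5 overlap on both backgrounds. Averaged over the backgrounds, the log2 difference of Plekhg3 was -0.00 (95% interval -0.10 to 0.09), so that changes outside -6.47% and 6.73% lie beyond the interval.

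Plekhg1 levels were 48.4, 52.2 and 47.7 CPM in Plekhg5+/+ and 49.97, 48.3 and 54.6 CPM in Plekhg5-/- libraries. In the transgenic mice they were 52.9, 50.7 and 45.1 CPM with and 47.1, 46.4 and 47.0 CPM without Plekhg5. The groups overlap on both backgrounds. The mean log2 difference of Plekhg1 was -0.02 (95% interval -0.13 to 0.09, or -8.45% to 6.38%).

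Plekhg2 is less abundant and its interval is wider. It was at 6.38, 8.66 and 6.92 CPM in Plekhg5+/+ and at 5.76, 7.80 and 7.98 CPM in Plekhg5-/- libraries. In the transgenic mice it was at 10.2, 8.91 and 8.997 CPM with and at 9.74, 10.1 and 9.45 CPM without Plekhg5. The groups with and without Plekhg5 overlap on both backgrounds, and the mean log2 difference was 0.01 (95% interval -0.20 to 0.23, or -12.8% to 17.005%).

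For Plekhg4 the direction of the difference with Plekhg5 loss was opposite on the 2 backgrounds, and no call was made on either. Its levels were 4.12, 4.74 and 3.29 CPM in Plekhg5+/+ and 1.62, 2.85 and 2.95 CPM in Plekhg5-/- libraries, which do not overlap. In the transgenic mice Plekhg4 was at 2.22, 2.10 and 1.75 CPM with and at 2.71, 3.52 and 2.18 CPM without Plekhg5, where the ranges overlap. The log2 difference was -0.71 without (SE 0.235, adjusted p = 0.836) and 0.46 with the transgene (SE 0.243, adjusted p = 0.592, edgeR). Averaged over the backgrounds it was -0.12 (95% interval -0.49 to 0.24, or -28.8% to 18.3%).

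**Figure D2:**
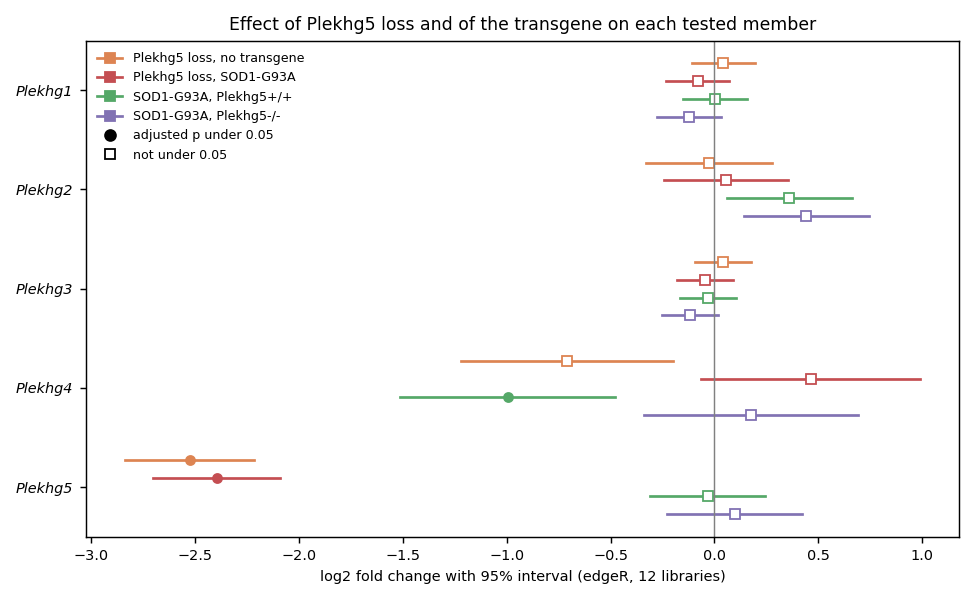
Log2 fold change of each tested Plekhg member in the comparisons of Plekhg5 loss and of SOD1-G93A, with 95% intervals from the edgeR fit. Only the Plekhg5 intervals lie far from 0 with Plekhg5 loss, at -2.53 and -2.40, and the Plekhg4 interval of the transgene in Plekhg5+/+ mice runs from -1.51 to -0.48.

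Per length, the paralogs together were at a similar level in all 4 genotypes. The summed RPKM of Plekhg1, Plekhg2, Plekhg3, Plekhg4 and Plekhg6 was 12.0 ± 0.920 (SD, n = 3) in Plekhg5+/+, 12.0 ± 0.205 in Plekhg5-/-, 11.9 ± 0.297 in Plekhg5+/+ SOD1-G93A and 11.8 ± 0.378 in Plekhg5-/- SOD1-G93A libraries. Plekhg5 alone was at 4.84 ± 0.650, 0.840 ± 0.150, 4.73 ± 0.461 and 0.898 ± 0.0871 RPKM in the same order. The share of Plekhg5 in the RPKM of the family was 28.7% in Plekhg5+/+ and 28.4% in Plekhg5+/+ SOD1-G93A, and 6.51% and 7.10% in the corresponding Plekhg5-/- genotypes. The family sum went from 16.8 to 12.9 RPKM without and from 16.6 to 12.7 RPKM with the transgene.

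Ordered by RPKM, the members had the same order in all 6 libraries with Plekhg5, and another order in all 6 libraries without it. With Plekhg5, the order from high to low was Plekhg3, Plekhg5, Plekhg1, Plekhg2, Plekhg4 and Plekhg6. Without it, Plekhg5 moved from the second to the fourth place, below Plekhg2. The RPKM of Plekhg3 was 6.86 to 7.97, of Plekhg1 2.43 to 2.94, of Plekhg2 1.03 to 1.83 and of Plekhg4 0.244 to 0.711 over the 12 libraries. No pair of neighbours in this order overlapped within a genotype. The order depends on length: by CPM, Plekhg1 stood ahead of Plekhg5 in all genotypes, and its combined exons are the longest of the family.

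**Figure D3:**
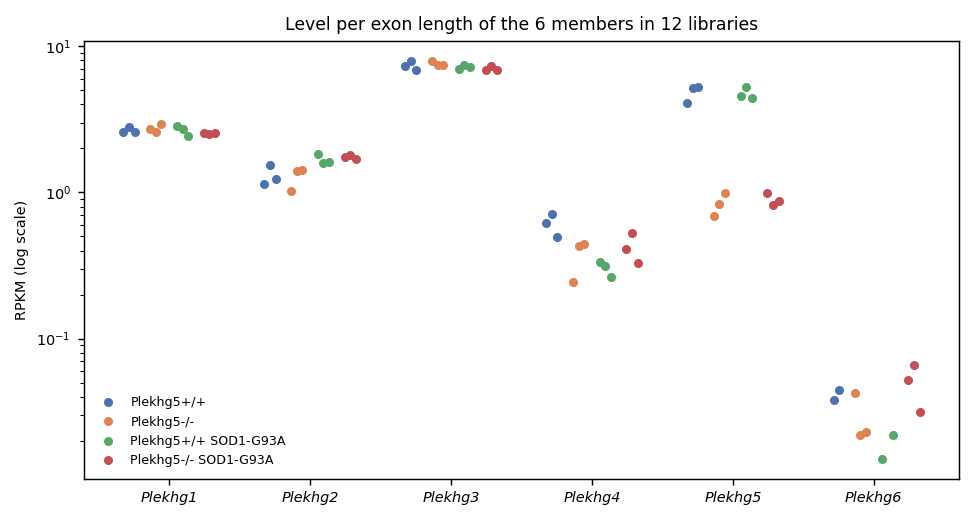
Level per length of the 6 Plekhg members (RPKM, log axis) in the 12 libraries by genotype, with 1 point per library. Plekhg3 is highest in every library, Plekhg5 falls below Plekhg2 in both Plekhg5-/- genotypes, and the 2 libraries in which Plekhg6 had 0 counts are not drawn.

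The members also differed in how much they varied. Over the 12 libraries the coefficient of variation of CPM was 4.996% for Plekhg3 and 5.91% for Plekhg1, against counting errors of 2.38% and 2.48% at their median counts. It was 17.4% for Plekhg2 and 33.5% for Plekhg4, against counting errors of 6.06% and 10.5%. Plekhg3 and Plekhg1 were thus the most even members, and their highest library exceeded the lowest by factors of 1.16 and 1.21.

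Plekhg6 was close to undetected. It had 0, 5 and 6 counts in Plekhg5+/+, 6, 3 and 3 in Plekhg5-/-, 2, 0 and 3 in Plekhg5+/+ SOD1-G93A and 7, 9 and 5 in Plekhg5-/- SOD1-G93A libraries. A count of 0 allows up to 3 counts, so most of these values are near the limit of detection. Plekhg6 was higher in all 3 Plekhg5-/- SOD1-G93A than in all 3 Plekhg5+/+ SOD1-G93A libraries, by 0.155 CPM on average (two-sided exact permutation test, p = 0.1, the smallest that 3 against 3 libraries allow). Without the transgene the groups overlap, at means of 0.114 CPM with and 0.120 CPM without Plekhg5 (exact permutation test, p = 0.9).

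With the transgene in Plekhg5+/+ mice, 1 of the 5 tested members was called, where 2.47% of all genes tested were called. This was Plekhg4, which fell by 1.00 on the log2 scale (SE 0.239, 95% interval -1.51 to -0.48, adjusted p = 0.0493, edgeR). The 3 Plekhg5+/+ SOD1-G93A libraries, at 1.75 to 2.22 CPM, lay below the 3 Plekhg5+/+ libraries, at 3.29 to 4.74 CPM. The call sits at the threshold and was lost in 12 of 21 alternative settings. It was lost with only the 2 genotypes in the fit (adjusted p = 0.0758), with an indicator of Y-linked transcripts (adjusted p = 0.0500012), and when any of 10 of the 12 libraries was left out. The call was kept in 9 of the 21 settings. Among the fits with a library left out, it was kept only without Plekhg5-/- library 1 (adjusted p = 0.0239) or Plekhg5+/+ library 3 (adjusted p = 0.0459). Without Plekhg5+/+ library 2 the adjusted p was highest, at 0.195. DESeq2 called Plekhg4, with adjusted p = 0.00476 where fold changes were shrunk by a prior and 0.00577 where they were not. In this comparison DESeq2 called 6.07% of all genes with and 6.06% without the prior, against 2.47% for edgeR.

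The Plekhg4 counts are low and partly shared. They ranged from 55.5 to 150.5, and 8 of the 12 were not whole numbers, so some reads were split with other genes or positions. Slc9a5, which overlaps Plekhg4 on the same strand, had a median of 901.5 counts and a log2 difference of -0.23 in the same comparison (SE 0.0770, adjusted p = 0.132, edgeR). The part of shared reads in the Plekhg4 difference was not tested.

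**Figure D4:**
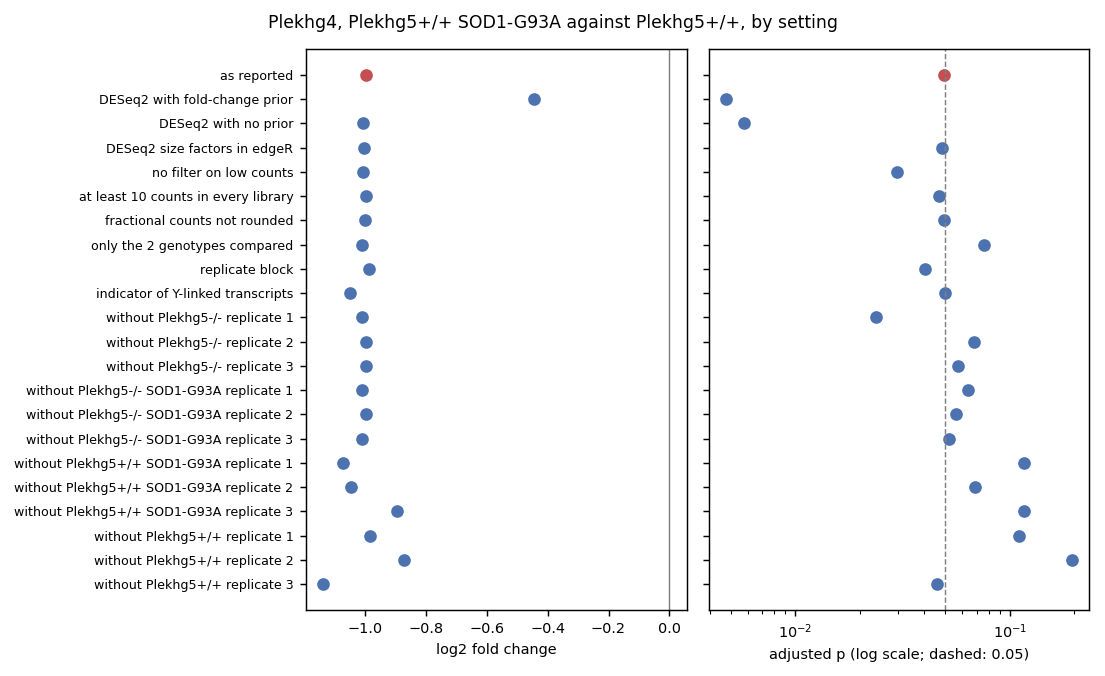
Log2 fold change (left) and adjusted p on a log scale (right) of Plekhg4 between Plekhg5+/+ SOD1-G93A and Plekhg5+/+ libraries, as reported and in 21 alternative settings, with the dashed line at 0.05. The fold change keeps its sign in all settings, from -1.14 to -0.45, while the adjusted p lies on both sides of the line.

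In mice without Plekhg5, 0 of the 5 members were called with the transgene by edgeR, where 0.00496% of all genes were called. At an unadjusted p under 0.05 it was 1 member, Plekhg2 (5.38% of all genes tested), and DESeq2 with and without the prior called 0. Plekhg4 did not differ beyond its spread here (log2 difference 0.18, SE 0.239, adjusted p = 0.953, edgeR). Plekhg1 and Plekhg3 were both lower in the 3 Plekhg5-/- SOD1-G93A libraries than in the 3 Plekhg5-/- libraries, without overlap. The two-sided exact permutation test gave p = 0.1 for both, the smallest possible. The share of all genes that separate in this way was not computed. The log2 differences of Plekhg1 and Plekhg3 were -0.12 each (95% intervals -0.28 to 0.03 and -0.25 to 0.02, adjusted p = 0.950 for both, edgeR).

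For Plekhg5 itself the groups with and without the transgene overlapped. The log2 difference was -0.03 in Plekhg5+/+ mice (95% interval -0.31 to 0.25). In Plekhg5-/- mice, for the residual signal, it was 0.10 (95% interval -0.23 to 0.42).

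Plekhg2 was higher in all 6 libraries with the transgene, at 8.91 to 10.2 CPM, than in all 6 libraries without it, at 5.76 to 8.66 CPM. The log2 difference was 0.36 in Plekhg5+/+ (SE 0.139, adjusted p = 0.189) and 0.44 in Plekhg5-/- mice (SE 0.138, adjusted p = 0.691, edgeR). The average of both, a contrast added after the values were seen, was 0.40 (SE 0.0980, 95% interval 0.19 to 0.61, adjusted p = 0.0677, edgeR). By that test 0 of 5 members passed the threshold, where 1.22% of all genes did. An unadjusted p under 0.05 was found for 2 members, Plekhg2 and Plekhg4, and for 14.7% of all genes tested. DESeq2 called Plekhg2 in the same contrast, with adjusted p = 0.0108 and 0.0109. There it called 4.11% of all genes with and 4.1% without the prior.

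For the interaction of Plekhg5 loss and the transgene, edgeR called 0 of the 5 members and 0% of all genes. At an unadjusted p under 0.05 it was 1 member (9.05% of all genes tested), and DESeq2 with and without the prior called 0 members. This member was Plekhg4, with a difference between the loss effects of 1.17 on the log2 scale (SE 0.338, 95% interval 0.44 to 1.90, adjusted p = 0.401, edgeR). Adjusted p was 0.111 and 0.124 in DESeq2 with and without the prior. The intervals of the other members included 0, at -0.34 to 0.51 for Plekhg2, -0.34 to 0.09 for Plekhg1 and -0.28 to 0.10 for Plekhg3.

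Cell type markers moved with the transgene in Plekhg5+/+ mice, a comparison in which the Plekhg2 and Plekhg4 libraries separated. The Plekhg2 libraries separated with the transgene in Plekhg5-/- mice as well, at means of 9.76 CPM with and 7.18 CPM without it. Of 8 microglial markers, edgeR called 7 as higher (all but Tmem119), where it called 2.47% of all genes tested. Their summed level was 319 to 361 CPM in Plekhg5+/+ and 571 to 1052 CPM in Plekhg5+/+ SOD1-G93A libraries. It was 341 to 469 CPM in Plekhg5-/- and 442 to 484 CPM in Plekhg5-/- SOD1-G93A libraries, where edgeR and DESeq2 called 0 of the 8, with 0 at an unadjusted p under 0.05. Of 6 astrocyte markers, edgeR called 1, Gfap, which rose in Plekhg5+/+ SOD1-G93A mice, and DESeq2 called Gfap and Aqp4. The 6 motoneuron markers summed to 275 to 283 CPM in Plekhg5+/+ and 201 to 263 CPM in Plekhg5+/+ SOD1-G93A libraries. Of these edgeR called 0, with 4 at an unadjusted p under 0.05 (18.2% of all genes tested). DESeq2 called Chat among them and Nefl among 6 neuron markers, where it called 6.07% of all genes with and 6.06% without the prior. The 5 Schwann cell markers summed to 234 to 354 CPM in Plekhg5-/- SOD1-G93A and to 51.6 to 98.4 CPM in Plekhg5-/- libraries. In Plekhg5+/+ libraries the sum ranged from 62.5 to 243 CPM, which overlaps both. With the transgene in Plekhg5-/- mice edgeR called 0 of the 5, with 5 at an unadjusted p under 0.05 (5.38% of all genes tested). DESeq2 called Ncmap with the prior and Ncmap and Egr2 without it, where it called 0.209% and 0.219% of all genes.

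On the transgene background, most differences of markers with Plekhg5 loss did not pass the threshold. Of the 59 markers in the 11 lists edgeR called 0, with 29 at an unadjusted p under 0.05 (8.64% of all genes tested). DESeq2 called 2 with the prior, the Schwann cell gene Ncmap and the endothelial gene Cdh5, and 1 without it, Ncmap. Its shares of all genes called were 0.566% and 0.353%. Markers of a cell type were measured in the same libraries, so counts of markers are not independent. The summed microglial level in Plekhg5-/- SOD1-G93A libraries lay below that in all Plekhg5+/+ SOD1-G93A libraries, with 7 of 8 markers at an unadjusted p under 0.05 and a median log2 difference of -0.57. The Schwann cell sum lay above that of the Plekhg5+/+ SOD1-G93A libraries, at 51.4 to 137 CPM, with 3 of 5 markers at that level and a median of 1.34. For 6 endothelial markers it was 5 with a median of 0.52, and for 4 blood markers 4 with a median of -0.90. Without the transgene edgeR and DESeq2 called 0 of the 59 with Plekhg5 loss, with 5 at an unadjusted p under 0.05 in edgeR (5.32% of all genes tested). Of these, 3 were Schwann cell markers, and the median log2 difference over all 5 Schwann cell markers was -0.96. The Schwann cell sums of Plekhg5+/+ and Plekhg5-/- libraries overlap. No marker of any list was at 0. Their part in the differences of Plekhg2, Plekhg4 and Plekhg6 was not tested.

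Known binding partners of the members were examined as a list of 14 genes, each of which passed the filter. With Plekhg5 loss edgeR called 0 of 14 without the transgene, 0 with it and 0 on average, with 3, 4 and 1 at an unadjusted p under 0.05. Over all genes tested the shares called were 0.0298%, 0.0347% and 0.0546%, and those at an unadjusted p under 0.05 were 5.32%, 8.64% and 3.88%. DESeq2, with and without the prior, called 0, 1 and 0, the 1 being Gnb4. On the transgene background its share of all genes called was 0.566% with and 0.353% without the prior. The median log2 difference over the 14 genes was 0.03, -0.07 and -0.03, beside 0.01, -0.01 and -0.00 over all genes tested. With the transgene in Plekhg5+/+ mice 1 of 14 was called by edgeR, where 2.47% of all genes tested were called, at a median of -0.02 beside -0.00 over all genes tested. DESeq2 called 3 (Gnb4, Mpdz and Actb), where it called 6.07% of all genes with and 6.06% without the prior. In Plekhg5-/- mice edgeR called 0 of 14, with 2 at an unadjusted p under 0.05 (5.38% of all genes), and DESeq2 called 0. For the interaction edgeR called 0 of 14, with 4 at an unadjusted p under 0.05 (9.05% of all genes). DESeq2 called 2, Gnb4 and the scaffold protein gene Mpdz, where it called 0.627% and 0.586% of all genes with and without the prior.

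The gene edgeR called was Gnb4, a G protein beta subunit of the kind that activates Plekhg2. Its level was 25.0 ± 1.11 CPM (SD, n = 3) in Plekhg5+/+, 27.8 ± 1.67 in Plekhg5-/-, 34.9 ± 2.25 in Plekhg5+/+ SOD1-G93A and 27.5 ± 0.140 in Plekhg5-/- SOD1-G93A libraries. It rose by 0.48 on the log2 scale with the transgene in Plekhg5+/+ mice (SE 0.0684, adjusted p = 0.0125, edgeR). In Plekhg5-/- mice the log2 difference was -0.02 (SE 0.0684, adjusted p = 0.990), and the difference between these effects did not pass the test in edgeR (adjusted p = 0.338). In DESeq2 with and without the prior that difference passed (adjusted p = 0.00583 and 0.00735). The log2 difference with Plekhg5 loss on the transgene background was -0.34 (SE 0.0681, adjusted p = 0.262, edgeR), and it too passed in DESeq2 (adjusted p = 0.00504 and 0.00998). The microglial markers rose in the same comparison as Gnb4, and their part in it was not tested. Averaged over both backgrounds Gnb4 rose by 0.23 with the transgene (SE 0.0484, adjusted p = 0.0401).

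Rab26, the vesicle GTPase on which Plekhg5 acts, was not called in any comparison. It was at 6.40 ± 0.317 CPM (SD, n = 3) in Plekhg5+/+, 6.51 ± 0.180 in Plekhg5-/-, 5.54 ± 0.541 in Plekhg5+/+ SOD1-G93A and 5.26 ± 0.623 in Plekhg5-/- SOD1-G93A libraries. Its log2 difference with Plekhg5 loss was 0.02 without (SE 0.112, adjusted p = 0.999) and -0.08 with the transgene (SE 0.114, adjusted p = 0.819, edgeR). With the transgene it was -0.21 in Plekhg5+/+ and -0.31 in Plekhg5-/- mice (adjusted p = 0.372 and 0.813).

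The genes whose log2 CPM followed a member most closely over the 12 libraries were named by Pearson correlation, given without a test because the libraries share genotypes and depth. Each named gene is also among the highest of all 20155 genes tested, a choice that by itself favours a high r. For Plekhg5 these were Slc2a5, a fructose transporter (r = 0.98), Eno1, a glycolytic enolase (r = 0.91), and Tnfrsf25, a death domain receptor (r = 0.90). All 3 lie on chromosome 4, at 1.93 Mb, 1.82 Mb and 123 bases from Plekhg5. The Eno1 counts were fractional in all 12 libraries, so reads were split with other positions. For Plekhg2 they were Swap70, Ppic and Anpep (r = 0.93 each), and for Plekhg4 they included Zc3h11a and Cers6 (r = 0.95 each). The closest genes to Plekhg1 (Gm6967, r = 0.89) and Plekhg3 (E430024P14Rik, r = 0.87) followed them less closely. Over deviations from the genotype means, which leave out the differences between genotypes, the closest were Gm39644 for Plekhg1 (r = 0.99), Kmt2d for Plekhg2 (r = 0.99), Vit for Plekhg3 (r = 0.92), Krit1 for Plekhg4 (r = 0.97) and Zfp385a for Plekhg5 (r = 0.97). Gm6967, E430024P14Rik and Gm39644 had low counts, with genotype means between 6.05 and 19.3 counts.

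Tnfrsf25 is the next gene downstream of Plekhg5 on the same strand (chr4:152115528-152120119). It was at 1.30, 1.92 and 0.949 CPM in Plekhg5+/+ and at 0.0342, 0.181 and 0 CPM in Plekhg5-/- libraries. With the transgene it was at 0.435, 0.693 and 0.720 CPM with and at 0.123, 0.121 and 0.0777 CPM without Plekhg5. All 6 libraries without Plekhg5 lay below all 6 libraries with it, as for Plekhg5, although they held between 0 and 6 counts. Tnfrsf25 was named for its correlation with Plekhg5, a choice that favours this separation. Slc2a5 separated in the same way, at 1.17 to 1.66 CPM without and 3.34 to 4.86 CPM with Plekhg5. So did Eno1, at 243 to 299 CPM without and 352 to 408 CPM with Plekhg5. The log2 difference of Tnfrsf25 was -4.23 without the transgene (SE 0.558, adjusted p = 0.0159, edgeR). This call was lost with only the 2 genotypes in the fit (adjusted p = 0.192). It was also lost without Plekhg5-/- library 1 or 3 (adjusted p = 0.120 and 0.0541) or Plekhg5+/+ library 1 or 2 (adjusted p = 0.0584 and 0.0903). The size of the difference moved to -6.20 without Plekhg5-/- library 2, which held the most counts of the 3, and to -0.61 in DESeq2 with the prior. With the transgene it was -2.50 (SE 0.563, adjusted p = 0.388, edgeR), and DESeq2 without the prior called it (adjusted p = 0.0285). Lower levels with the transgene in Plekhg5+/+ mice were called by DESeq2 with the prior (adjusted p = 0.0100) and not by edgeR (log2 difference -1.17, adjusted p = 0.138). Averaged over both backgrounds the log2 difference with Plekhg5 loss was -3.36 (SE 0.399, adjusted p = 0.00435, edgeR).

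**Figure D5:**
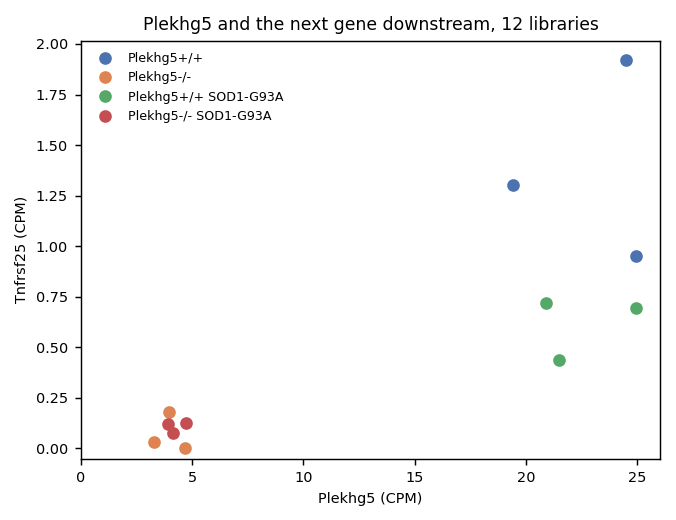
Level of Tnfrsf25 against that of Plekhg5 (CPM, linear axes) with 1 point per library, coloured by genotype. The 6 Plekhg5-/- libraries lie together at the lower left, with Tnfrsf25 at 0 to 0.181 CPM, apart from the 6 libraries with Plekhg5, with Tnfrsf25 at 0.435 to 1.92 CPM. Tnfrsf25 was picked for its correlation with Plekhg5 over these libraries.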

How the data were processed

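Polyadenylated RNA, enriched from total RNA of mouse spinal cord, was sequenced for 12 libraries, 3 for each of 4 genotypes. Per the submitters' processing notes, the authors used bcl2fastq version 2.20.0.422, Cutadapt version 2.4, STAR version 2.7.2b and featureCounts version 1.6.4. Reads were mapped to GRCm38.p6 with the human SOD1 cDNA and counted by strand on RefSeq exons, with reads on several genes or positions counted as fractions. The deposited values are thus expected or estimated counts per gene, not normalized, of which 17.32% to 18.15% per library were not whole. Combined exon lengths are those in the deposited table.

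Counts were rounded, genes were filtered with filterByExpr of edgeR version 4.0.16 (20155 of 45906 kept), and library sizes were normalized with TMM in R version 4.3.3. Robust quasi-likelihood fits with the genotype as their term used all 12 libraries, and the Benjamini-Hochberg adjustment covered every gene in the fit, with a threshold of 0.05. Intervals are 95% intervals from the same fits. Plekhg6, which failed the filter, was compared with exact permutation tests. At the depth of 30415643 to 38743628 counts, counting error is small for Plekhg1 and Plekhg3 and large for Plekhg6. No pair of libraries within a genotype agreed within sampling noise (chi-square per degree of freedom of 5.42 to 25.9). The genes named are the members, genes that overlap them, called members of a list of binding partners and Rab26, and genes among the 3 with the highest correlation for each tested member. Marker genes of 11 cell types were summed. Other pathway lists and a further correlated gene are not reported here. The members and lists were chosen with earlier results of these data known. The alternatives, 21 in number, included DESeq2 version 1.42.0, once with shrunken and once with plain fold changes, DESeq2 size factors in edgeR, no filter, a minimum of 10 counts in every library, counts not rounded, only the genotypes compared, an indicator of Y-linked transcripts, a block for the replicate number, and each of the 12 libraries left out. The fits were tested on simulated data with 200 changed genes. Promoter windows come from RefSeq on GRCm38.p6.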

Additional observations from a re-analysis of the deposited data

Results flagged for a closer look

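Plekhg4 was noted because its libraries moved in opposite directions with Plekhg5 loss on the 2 backgrounds: relative to the control mean, every Plekhg5-/- library was lower without the transgene and every Plekhg5-/- SOD1-G93A library was higher with it. The difference between the loss effects was 1.17 on the log2 scale (adjusted p = 0.401, edgeR), so it did not pass the test.

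Plekhg6 was noted because its libraries moved in opposite directions with the transgene: relative to the control mean, each was lower in Plekhg5+/+ SOD1-G93A mice and higher in Plekhg5-/- SOD1-G93A mice. The difference between these effects was 0.149 CPM, from libraries with 0 to 9 counts, and it was not tested.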

How the results depend on the processing

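Over the tested members, Tnfrsf25 and the 21 alternative settings, 856 values were recomputed, of which 792 kept direction and side of the threshold, 17 lost and 4 gained a call, and 43 changed sign without a call in either setting. With only the genotypes compared or with an indicator of Y-linked transcripts, 0 members were called with the transgene in Plekhg5+/+ mice, and with libraries left out in turn 0 to 1. DESeq2 with and without the prior called 1 member, Plekhg2, in the mean effect of the transgene, where it called 4.11% and 4.1% of all genes. DESeq2 with the prior shrank Plekhg5 to -1.76 and -1.68. Of the other gained calls, DESeq2 without the prior called Tnfrsf25 for Plekhg5 loss with the transgene, and DESeq2 with the prior called it for the transgene in Plekhg5+/+ mice. By CPM without length Plekhg1 ranks 2 and Plekhg5 ranks 3 in both genotypes with Plekhg5 (Plekhg5 ranks 4 in both without it), and with no filter 0 members fall below it.

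Signs changed for differences near 0. Plekhg1 with the transgene in Plekhg5+/+ mice was -0.00439 and -0.00489 in DESeq2 with and without the prior, -0.00484 with DESeq2 size factors, -0.00814 with no filter and -0.00974 with only the genotypes compared. With libraries left out in turn it ranged from -0.047 to 0.066, Plekhg3 from -0.090 to 0.021 and Plekhg5 from -0.14 to 0.020. For Plekhg5 loss without the transgene the ranges were -0.00947 to 0.084 (Plekhg1), -0.12 to 0.11 (Plekhg2) and -0.010 to 0.093 (Plekhg3), and on average -0.051 to 0.0056, -0.031 to 0.088 and -0.024 to 0.025. For the transgene in Plekhg5-/- mice they were -0.061 to 0.32 (Plekhg4) and -0.034 to 0.23 (Plekhg5), for the interaction -0.054 to 0.17 (Plekhg2), and for the mean effect of the transgene -0.040 to 0.099 (Plekhg5) and -0.57 to 0.68 (Tnfrsf25).

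Deviations of libraries with the same replicate number correlated between -0.163 and 0.318, and those of libraries with different numbers between -0.334 and 0.283. These ranges overlap, and whether the numbers pair the libraries was not tested. With the replicate number as a block, the members called were 1, 1 and 1 with Plekhg5 loss (without and with the transgene and on average), 1 with the transgene in Plekhg5+/+ mice and 0 in the other comparisons. Genes called in the mean effect of the transgene went from 245 to 417 with this block.

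Over all genes, DESeq2 with and without the prior called 35 and 36 genes against 6 for Plekhg5 loss without the transgene, 114 and 71 against 7 with it, and 21 and 18 against 11 on average. For the transgene it called 1198 and 1172 against 498 in Plekhg5+/+, 42 and 44 against 1 in Plekhg5-/- mice, 827 and 826 against 245 on average, and for the interaction 114 and 102 against 0. With only the genotypes compared the counts were 4, 11, 3 and 20 for the comparisons of 3 libraries against 3. The indicator of Y-linked transcripts gave 412 for the mean effect of the transgene. With libraries left out in turn, the calls with the transgene in Plekhg5+/+ mice ran from 2 to 771, the mean effect from 10 to 560, the loss without the transgene from 5 to 59 and the interaction from 0 to 40. The causes were not tested.

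The minimum of 10 counts in every library removed Tnfrsf25. In Plekhg6 and Tnfrsf25 the depth limits what can be seen, since several libraries held under 10 counts.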
